A study of Bos taurus with 8 samples.

Results

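The comparison described here set the semitendinosus muscle of Hereford bulls against that of Limousin bulls. It rests on the 4 arrays of the study, of 8 in all, whose titles pair a Hereford with a Limousin bull. The semitendinosus is a locomotor muscle at the back of the thigh. All animals were bulls aged 15 months, 4 Hereford and 4 Limousin, and each array carried the RNA of 1 bull of each breed. Hereford RNA was labelled with Cy5 and Limousin RNA with Cy3 on all 4 arrays, which lay on 1 slide, so breed and dye cannot be told apart in these ratios. The same 4 Limousin bulls were labelled with Cy5 on a second slide, against 4 Holstein-Friesian bulls of the same age in Cy3. That slide gives a reading of Hereford over Limousin in the same dye, each breed then coming from its own slide. Where the readings differ, dye and slide cannot be told apart. The series presents Hereford and Holstein-Friesian as breeds of well-marbled beef and Limousin as a lean breed. No feed, weight or carcass measure was used here.

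Marbling is fat laid down between and within the bundles of muscle fibres, in fat cells that grow in the connective tissue of the muscle. Muscle itself is a mixture of slow-twitch fibres, which burn fat and glucose in mitochondria, and fast-twitch fibres, which rely more on glycogen and glycolysis. Each fibre type has its own myosin, troponin and calcium pump genes. Whole muscle RNA also carries transcripts of vessels, connective tissue, nerve and immune cells. In such bulk samples, fewer cells of a type and less RNA per cell cannot be told apart.

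The arrays read 21475 bovine probes, of which 16405 were well above background in at least 4 of the 8 readings (4 arrays, 2 dyes) and were tested. A RefSeq symbol was found for 6519 genes among them, each represented by its brightest probe. Median net signal was 97 to 139 intensity units in Hereford and 63 to 88 in Limousin. With 4 arrays, precision is limited by their number. Of 8 markers of skeletal muscle fibres, 5 had a named probe (ACTA1, CKM, MYH1, MYH2 and DES), and all 5 were well above background in all 8 readings. Pairs of arrays correlated across probes at 0.0612 to 0.532, lowest between arrays 1 and 3. Array 1 had the widest ratios: 6.04% of its probes lay past 1 log2 unit in either direction, against 2.49% to 3.63% on the other arrays.

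Hereford muscle differed from Limousin muscle in a small set of genes with close agreement over the 4 arrays. ATP2A2, which encodes the SERCA2 calcium pump of slow fibres and heart, rose, together with the transcription factor ETS2, the vessel growth factor ANGPT1 and the muscle actin regulator ABRA. MT2A, whose metallothionein holds zinc and copper ions, fell about 11.0-fold, the largest difference among all named genes. CPT1B, which admits fatty acids to muscle mitochondria, and PSMA5, a subunit of the proteasome core, fell as well. In all, 33 probes passed at an adjusted p under 0.05 in limma (0.201% of probes), 19 higher and 14 lower in Hereford. They stand for 20 named genes (0.307% of named genes), 12 higher (0.184%) and 8 lower (0.123%). The remaining probes are a second probe of ATP2A2 and 12 probes without a symbol. At an unadjusted p under 0.05 there were 3219 probes (19.6%), and 20.6% of named genes. By direction, 9.56% of named genes were higher and 11.0% lower, the shares to set beside each group count below.

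**Figure D1:**
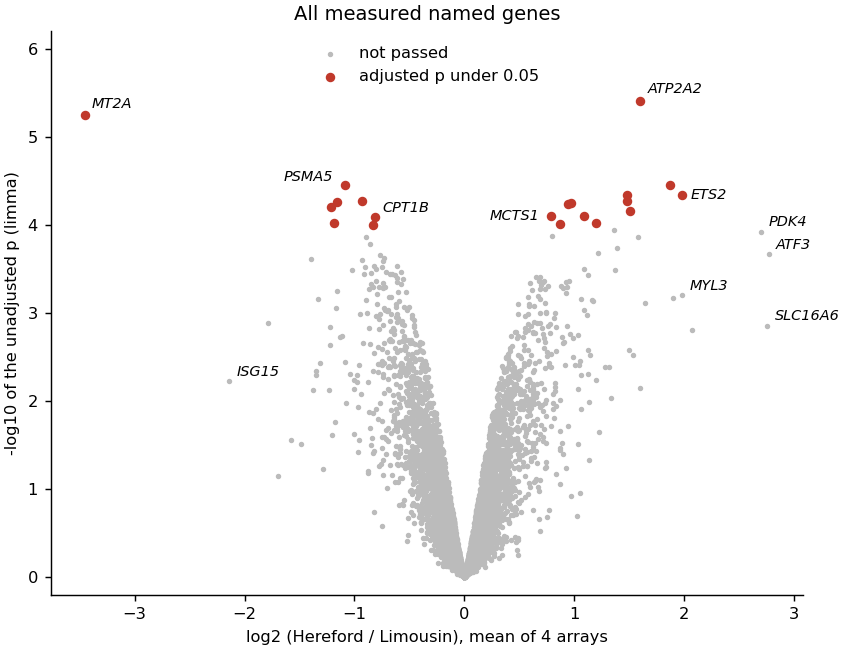
Mean log2 ratio of Hereford over Limousin over the 4 arrays (x axis) against -log10 of the unadjusted p of limma (y axis), 1 point per named gene. The 20 genes that passed are in red; PDK4, ATF3 and SLC16A6 lie farther right than any of them but lower.

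These calls sit close to the threshold. Their adjusted p-values in limma ran from 0.046 to 0.0498. With any 1 array left out, limma called 0 probes (2116 to 3529 at an unadjusted p under 0.05), and with a mean-variance trend and robust prior it also called 0 (2741 unadjusted). When the spread was pooled with the Holstein-Friesian arrays, 1240 probes passed (7.56% of probes, 7.82% of named genes), and 18 of the 20 kept their call (not ABRA and TMEM86A). With median centring in place of loess, 180 probes passed, 91.7% of them higher against 57.6% here, and CPT1B, PIAS3, PSMA5 and TMEM86A did not. The calls favour genes with little spread: the median SD over the 4 arrays was 0.190 log2 among called probes and 0.244 among all probes. Of 183 probes with a mean difference past 1 log2 unit, 158 did not pass.

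MT2A gave log2 ratios of Hereford over Limousin of -3.03, -3.12, -3.68 and -3.99 on arrays 1 to 4. The mean was -3.45 (SD 0.46, n = 4, limma adjusted p = 0.046). By bull, its log2 level in Cy5 was 9.56 to 10.45 in the 4 Hereford and 12.62 to 13.62 in the 4 Limousin bulls, so the breeds did not overlap. The share of all named genes without overlap was not counted, here or for the genes below. In the same dye the difference was -3.32. MT2A was the member that passed among 8 measured genes of metallothioneins and zinc carriers. The others stood between -0.45 (SLC39A1, a zinc importer) and 0.28 (SLC39A14, another), and MT3, a second metallothionein, stood at 0.22 (SD 0.45).

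CPT1B gave -0.76, -0.90, -0.83 and -0.75, a mean of -0.81 (SD 0.071, n = 4, limma adjusted p = 0.048). The 4 arrays lay within a narrow band. Its size differed between the readings: in the same dye CPT1B stood at -0.54 (limma adjusted p = 0.036), and the Limousin bulls read lower in Cy5 than in Cy3 by 0.27. PSMA5 gave -1.17, -1.22, -0.96 and -1.0, a mean of -1.09 (SD 0.13, limma adjusted p = 0.047), and kept that size in the same dye (-1.01). PIAS3, which restrains STAT transcription factors, gave -1.03, -0.92, -0.80 and -0.98, a mean of -0.93 (SD 0.098, limma adjusted p = 0.047). All 4 arrays were below 0 for each of these genes.

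SLC29A2, a carrier of nucleosides, fell (mean -1.22, SD 0.21, limma adjusted p = 0.047), and array 1 lay apart at -0.91 and the other arrays at -1.28 to -1.34. It stood at -0.77 in the same dye. TMEM86A, an enzyme of ether lipid breakdown, fell by 0.83 (SD 0.10, limma adjusted p = 0.0498) and LOC338050 by 1.16 (SD 0.18, limma adjusted p = 0.047). ARMC2 fell by 1.18 (SD 0.23, limma adjusted p = 0.0498). It was well above background on all 4 arrays in Limousin and on 2 of 4 in Hereford, so the size of its fall is less certain.

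The rises were led in size by ETS2, SYT4 and ATP2A2. The log2 ratios of ATP2A2 were 1.55, 1.76, 1.60 and 1.51, a mean of 1.60 (SD 0.11, n = 4, limma adjusted p = 0.046). A second probe of the gene also passed, at 1.06 (SD 0.13, limma adjusted p = 0.047). In the same dye the brighter probe stood at 1.14 (limma adjusted p = 0.028), and the Limousin bulls read 0.47 higher in Cy5 than in Cy3. ETS2 gave 1.82, 2.33, 2.26 and 1.52, a mean of 1.98 (SD 0.39, limma adjusted p = 0.047), with 2.19 in the same dye. SYT4, a synaptotagmin of vesicle release, gave 2.08, 1.90, 2.13 and 1.39, a mean of 1.88 (SD 0.34, limma adjusted p = 0.047). In the same dye SYT4 was at 1.53 and did not pass (limma adjusted p = 0.094). The other 19 called genes passed in that reading too, where 3.07% of named genes passed. It reuses the Hereford readings that chose these genes, so their passing is no separate support.

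ABRA, which couples actin to gene control in striated muscle, gave 1.77, 1.16, 1.38 and 1.65, a mean of 1.49 (SD 0.27, limma adjusted p = 0.047). NOCT, a rhythmically expressed phosphatase known as nocturnin, gave 1.52, 1.11, 1.68 and 1.65, also a mean of 1.49 (SD 0.26, limma adjusted p = 0.047). Array 2 was the lowest for both. ANGPT1 rose by 1.20 (SD 0.24, limma adjusted p = 0.0498) and LXN, which encodes the carboxypeptidase inhibitor latexin, by 1.10 (SD 0.19, limma adjusted p = 0.048). LXN shifted most between the readings among the calls: it stood at 0.58 in the same dye (limma adjusted p = 0.045), and the Limousin bulls read 0.51 higher in Cy5.

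The rises under 1 log2 unit had close arrays. MCTS1, a factor in translation restart, gave 0.83, 0.76, 0.83 and 0.73, a mean of 0.79 (SD 0.049, n = 4, limma adjusted p = 0.048). CNKSR3, a signalling scaffold, rose by 0.87 (SD 0.12), PDE4B, which breaks down cyclic AMP, by 0.95 (SD 0.11) and HIGD1B by 0.97 (SD 0.12), with limma adjusted p-values of 0.0498, 0.047 and 0.047. In the same dye these 4 genes stood at 0.77, 0.87, 0.76 and 0.98.

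ASIP encodes the agouti signal protein, which blocks melanocortin receptors and is also made in bovine fat. Its log2 ratios were 1.62, 1.09, 1.53 and 1.80 (limma adjusted p = 0.047). The probe was well above background in all 4 Hereford bulls and in 0 of 4 Limousin bulls in Cy3. It met the filter only through its Hereford readings, so its p-value and levels are no separate support. With all readings required above background, 40 probes passed, and ASIP and ARMC2 were left out. ASIP was therefore at least 2.83-fold higher in Hereford, the bound being the Hereford level over the lowest signal accepted as above background. The measured means were 1.51 log2 apart, and 5.03 with the processed signals, so the size is not fixed beyond that bound. By bull the level in Cy5 was 7.10 to 7.86 log2 in Hereford and 5.94 to 6.10 in Limousin, with no overlap.

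**Figure D2:**
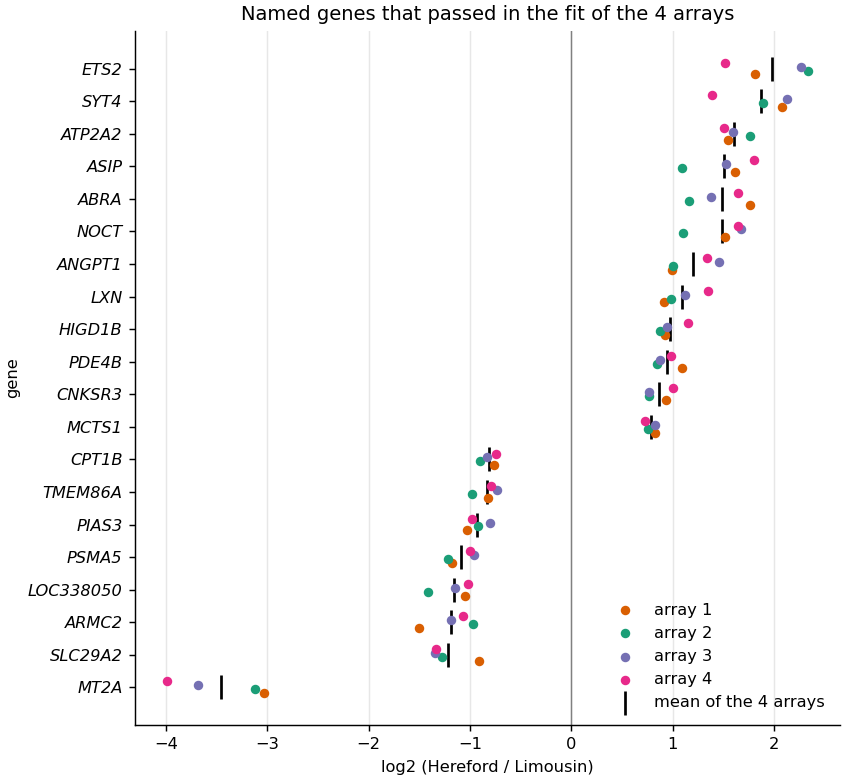
Log2 ratio of Hereford over Limousin on each of the 4 arrays (coloured points) and their mean (black bar) for the 20 named genes that passed, ordered by mean. No gene has an array on the other side of 0, MT2A stands alone near -3.45, and MCTS1 and CPT1B have the closest arrays.

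Several larger differences, with a wider spread between arrays, did not pass. ATF3, a transcription factor of the stress response, gave 1.83, 2.83, 2.69 and 3.75, a mean of 2.77 (SD 0.79, limma adjusted p = 0.054). PDK4, which switches off pyruvate burning when fat is the fuel, gave 2.81, 3.33, 1.75 and 2.94, a mean of 2.71 (SD 0.68, limma adjusted p = 0.052). SLC16A6, a carrier of ketone bodies, gave 4.51 on array 1 and 2.07 to 2.32 on the others (mean 2.76, SD 1.17, limma adjusted p = 0.070). These 3 genes had the highest mean ratios of all named genes. INHA, the alpha subunit of inhibin, gave 2.41, 1.50, 2.53 and 1.15, a mean of 1.90 (SD 0.68, limma adjusted p = 0.059). Every array was above 0 for these 4 genes, and their Cy5 levels did not overlap between the breeds: for INHA 8.64 to 10.78 log2 in Hereford and 7.35 to 8.06 in Limousin, for SLC16A6 9.73 to 11.83 and 7.54 to 8.77. A ratio above 0 on all 4 arrays was seen in 13.4% of named genes and below 0 in 14.8%. The 4 genes were named for large ratios from the same Hereford readings, so their separate levels are a description only.

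Slow-twitch fibre genes stood higher in Hereford as a group. Of 10 measured, 9 had a mean above 0 and 8 were above 0 on all 4 arrays. ATP2A2 was the 1 that passed; 8 were higher at an unadjusted p under 0.05 in limma, against 9.56% of named genes, and 4 (ATP2A2, MYL3, MYL2 and MYH7) were higher in the fit pooled over both breeds, against 3.56%. With the Limousin bull as a block, since the same bulls lie on both slides, 2 were higher (ATP2A2 and MYL3), against 3.47%. MYL2 and MYH7 then had limma adjusted p-values of 0.054 and 0.069. The group's median was 1.16 log2 (0.58, 1.52, 1.66 and 0.93 on arrays 1 to 4), against -0.0012 over all named genes. In the same dye it was 0.73. These members, like those of every group below, were listed with earlier results of these data known.

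Within the group, MYL3, the slow essential light chain, gave 1.57, 2.51, 2.64 and 1.22 (mean 1.98, limma adjusted p = 0.058). Its Cy5 level was 14.46 to 15.68 log2 in Hereford and 12.45 to 13.35 in Limousin, without overlap. MYL2, the slow regulatory light chain, stood at 1.37 (SD 0.30, limma adjusted p = 0.052), TNNT1, the slow troponin T, at 1.37 (SD 0.39, limma adjusted p = 0.054) and MYH7, the slow myosin heavy chain, at 1.18 (SD 0.40, limma adjusted p = 0.061). TNNC1, the slow troponin C, was uneven, at 0.28, 1.66, 2.51 and 0.11. CSRP3, a Z-disc protein, went both ways, at -1.32, 1.94, -1.11 and -0.29. Arrays 2 and 3 were the highest for MYL3, TNNT1, MYL2 and TNNC1.

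Fast-twitch fibre genes had a small median that changed sign in the same-dye reading. Of 10 measured, 0 passed in limma (5 at an unadjusted p under 0.05, 4 higher and 1 lower). Their median was 0.28 log2 in the Hereford arrays, -0.088 in the same dye and 0.87 with median centring in place of loess, a scaling that moved the median of all named genes to 0.14. PVALB, the calcium buffer of fast fibres, gave -0.74, -0.98, -0.50 and -0.94 (mean -0.79, SD 0.22, limma adjusted p = 0.057) and stood at -0.44 in the same dye. MYH2, the fast oxidative myosin, stood at 0.60 (SD 0.31, limma adjusted p = 0.107) and at 0.51 in the same dye. MYH1, the other fast myosin measured, stood at 0.50 and at -0.018. Calcium handling genes (8 measured, median -0.041, 0 passed in limma, 2 at an unadjusted p under 0.05) had HRC, a calcium-binding protein of the sarcoplasmic reticulum, at -0.38 and the kinase CAMK2D at 0.40.

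Genes that steer the choice of fuel differed in direction from each other. In the list of fatty acid oxidation and fuel switch (20 measured, median -0.018 log2), CPT1B fell and no other member passed. At an unadjusted p under 0.05, 3 were higher and 6 lower. The 3 higher ones were PDK4, PPARGC1A, the coactivator of mitochondrial genes (0.48, 1.59, 2.26 and 1.80, mean 1.53, limma adjusted p = 0.084), and ANGPTL4, an inhibitor of lipoprotein lipase (0.91, SD 0.46, limma adjusted p = 0.093). The lower ones held, beside CPT1B, UCP3, a mitochondrial carrier induced by fat (mean -0.86, SD 0.67, limma adjusted p = 0.170), ACOT2 (-0.63), PPARD (-0.36), ACADVL (-0.29) and SLC25A20 (-0.27). PPARD stood at 0.14 in the same dye, the opposite sign, so no direction can be given for it. PDK4, PPARGC1A and ANGPTL4 kept 2.72, 1.48 and 0.82 there.

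Respiratory chain genes were mostly above 0. Of 38 respiratory chain and ATP synthase genes, 34 had a mean above 0, against 49.7% of named genes, and 0 passed in limma. At an unadjusted p under 0.05, 9 were higher, against 9.56% of named genes. Their median was 0.15 log2, and 0.55 with median centring, or 0.41 relative to all named genes. COX7A2, a subunit of cytochrome oxidase, was highest at 0.72 (SD 0.28, limma adjusted p = 0.073), and NDUFS4 of complex I stood at 0.49 (SD 0.13, limma adjusted p = 0.072). Of 15 citric acid cycle genes, 0 passed in limma and 4 were lower at an unadjusted p under 0.05, among them IDH2 (-0.64, SD 0.28, limma adjusted p = 0.088) and SDHC (-0.40, SD 0.27). The median of the citric acid cycle genes was -0.029, and 0.34 with median centring, or 0.19 relative to all named genes. Glycolysis and glycogen genes (23 measured, 0 passed in limma, 4 at an unadjusted p under 0.05) had a median of 0.068, and of -0.12 in the same dye. LDHB, the lactate dehydrogenase of oxidative tissue, stood at 0.99 (SD 0.47, limma adjusted p = 0.087) and at 1.06 in the same dye. LDHA, that of glycolytic tissue, stood at 0.56 and at 0.21.

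Immediate early genes, which cells switch on within a short time of a stimulus, stood higher in part. None of the 17 measured passed in limma. At an unadjusted p under 0.05, 7 were higher and 0 lower, against 9.56% and 11.0% of named genes. In the pooled fit 5 were higher, against 3.56%. The median was 0.66 log2 (0.56, 0.44, 0.97 and 0.11 by array). ATF3 and JUN, a partner in the AP-1 factor (1.64, 0.93, 1.25 and 1.08, mean 1.22, limma adjusted p = 0.054), led with NR4A2 (1.50), MYC (1.28), KLF4 (0.99), ZFP36 (0.76) and NR4A1 (0.74). FOS, the other AP-1 partner, gave 0.39, -0.30, 1.98 and -1.09 (mean 0.25, limma adjusted p = 0.863). Array 3 was the highest for FOS, KLF6, CCN1, KLF4 and MYC, and without array 3 the group's median was 0.16.

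Stress genes and chaperones were mixed. GADD45A, which halts the cell cycle, gave 1.88, 0.95, 2.34 and 1.43 (mean 1.65, limma adjusted p = 0.061). DDIT4L, an inhibitor of the growth kinase mTOR, gave -2.24, -1.86, -1.07 and -0.34 (mean -1.38, limma adjusted p = 0.112). Among the 11 growth arrest and stress genes 0 passed in limma, with 4 higher and 2 lower at an unadjusted p under 0.05. Their median was 0.49 log2, and 0.015 without array 2. Of 17 chaperone genes, 0 passed in limma. At an unadjusted p under 0.05, 6 were higher and 1 lower, against 9.56% and 11.0% of named genes. In the pooled fit 4 were higher, against 3.56%. Those 4 were DNAJB1 (1.32, SD 0.69), DNAJA1 (1.11, SD 0.41) and HSPH1 (1.05, SD 0.52), which work with the HSP70 chaperones, and HSPA5 (0.58, SD 0.25) of the endoplasmic reticulum. HSPA1A, an inducible HSP70, stood at -0.27 (SD 0.58).

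Interferon response genes stood lower in Hereford on 3 of the 4 arrays. Of 11 measured, 10 had a mean below 0, 0 passed in limma and 6 were lower at an unadjusted p under 0.05, against 11.0% of named genes. The median was -0.92 log2, and by array -0.95, -1.05, -0.055 and -0.99. ISG15, a ubiquitin-like modifier, gave -3.12, -2.49, -0.30 and -2.64 (mean -2.14, SD 1.25, limma adjusted p = 0.106). RTP4 gave -1.62, -1.56, -0.83 and -1.55 (mean -1.39, limma adjusted p = 0.054) and MX1, an antiviral GTPase, -1.60, -1.42, -0.33 and -2.04 (mean -1.35, limma adjusted p = 0.096). Other members of the list differed little: MX2, PSMB9, RSAD2, PSMB8 and IFI35 stood at -0.26, -0.11, -0.10, -0.10 and 0.045. XAF1, which interferon also induces but which was not in the list, gave -1.82, -1.85, -0.25 and -1.47.

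The levels by bull show where array 3 differed. ISG15 stood in Cy5 at 7.81, 7.56, 7.02 and 6.50 log2 in Hereford bulls 1 to 4, and at 10.44, 10.13, 7.24 and 9.28 in Limousin bulls 1 to 4. Limousin bull 3 thus lay within the Hereford range and the other 3 Limousin bulls above it. RTP4, MX1 and XAF1 had the same bull lowest among the Limousin, at 8.25, 7.42 and 7.55. In Hereford they reached 8.61, 8.31 and 7.59, above that bull. The groups overlapped for all 4 genes through this 1 bull. It read alike in Cy3, at 7.32 for ISG15.

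**Figure D3:**
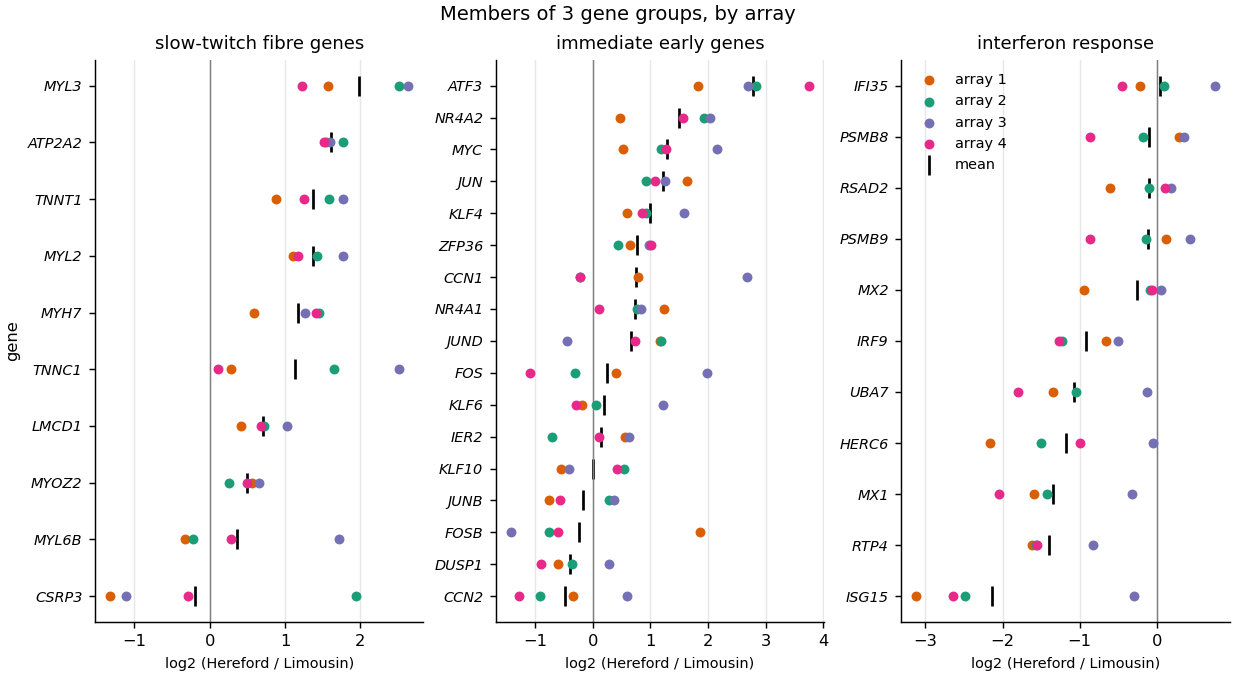
Log2 ratio of Hereford over Limousin on each array (coloured points) and the mean (black bar) for the measured members of 3 gene groups, slow-twitch fibre, immediate early and interferon response. Array 3 lies closer to 0 than arrays 1, 2 and 4 for ISG15, RTP4 and MX1, and it is often the highest for the immediate early genes.

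Complement and macrophage genes followed the same arrays in part. Complement genes (14 measured, 0 passed in limma, 1 higher and 4 lower at an unadjusted p under 0.05) had medians of -0.28, -0.51, -0.0091 and -0.47 on arrays 1 to 4. C4A gave -1.54, -1.70, -0.45 and -1.22 (mean -1.23, limma adjusted p = 0.076), yet its Cy5 levels did not overlap, at 9.36 to 9.70 log2 in Hereford and 10.16 to 11.19 in Limousin. CD55, which shields cells from complement, was small but even, at -0.52, -0.53, -0.59 and -0.58 (SD 0.035, limma adjusted p = 0.054). Macrophage genes (8 measured, 7 below 0, 0 passed in limma, 3 at an unadjusted p under 0.05) had medians of -0.41, -0.46, 0.22 and -0.32. The summed level of CD68 and CD14, the 2 of 4 defining macrophage markers with a named probe, was 208 to 226 intensity units in Hereford and 209.8 to 263 in Limousin in the same dye. Their part in the interferon and complement values was not tested. CD74, the invariant chain of MHC class II, stood at 0.68 (SD 0.14, limma adjusted p = 0.054) but at 0.21 in the same dye.

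Fat cell genes, which bear most directly on marbling, had a median slightly below 0, less so in the same dye. A few of them varied widely from bull to bull. Of 16 measured, 11 had a mean below 0, against 50.3% of named genes, and 0 passed in limma. At an unadjusted p under 0.05, 4 were lower (CIDEA, G0S2, LIPE and CFD) and 0 higher, against 11.0% and 9.56% of named genes. The median was -0.10 log2, and by array -0.011, -0.23, -0.096 and -0.33. In the same dye it was -0.045, where ZNF423, RETN and ADRB3 turned above 0 and THRSP below. FABP4, which carries fatty acids inside fat cells, gave 2.97, -1.34, 1.56 and -1.22 (mean 0.49, SD 2.13, limma adjusted p = 0.825), the widest spread of all named genes above background in every reading. CIDEC, a coat protein of fat droplets, gave 2.92, -0.92, 0.49 and -0.56 (mean 0.48, SD 1.73). Both had their highest value on array 1, and without array 1 their means were -0.34 and -0.33.

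In Cy5, FABP4 stood at 11.13, 7.38, 9.0 and 8.98 log2 in the Hereford bulls and at 8.18, 8.68, 7.37 and 10.26 in the Limousin bulls. The breeds overlapped, with Hereford bull 1 highest and Limousin bull 4 next. Summed over the 5 of 6 defining fat cell markers with a named probe (all but ADIPOQ), the level was 1415 to 4871 intensity units in Hereford and 1538 to 3056 in Limousin in the same dye. PLIN1, another droplet coat, ranged from 6.52 to 7.46 log2 in Hereford and from 6.75 to 6.95 in Limousin. LEP, which encodes leptin, was well above background in 3 of 4 Hereford and 2 of 4 Limousin readings and stood at 0.015. PPARG, the regulator of fat cell formation, stood at 0.077 (SD 0.34).

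Genes that make and store fat differed in direction, and none passed the 4-array test. Fatty acid and triglyceride synthesis (13 measured, 0 passed in limma, 2 higher and 2 lower at an unadjusted p under 0.05) had a median of 0.13 log2. SCD, which desaturates fatty acids, gave 0.30, -0.43, 0.64 and 0.67, a mean of 0.29 (limma adjusted p = 0.515), and a second probe 0.23. GPAM, which starts triglyceride synthesis, stood at 0.57 (SD 0.43) and ACLY, which supplies its carbon, at -0.31 (SD 0.22). Lipid uptake and droplet genes (13 measured, 0 passed in limma, 3 at an unadjusted p under 0.05) had PLIN2, the droplet coat of muscle, at -0.77 (SD 0.37, limma adjusted p = 0.092), below 0 on all 4 arrays. In the pooled fit and in the same dye PLIN2 passed (limma adjusted p = 0.028 and 0.0498). VLDLR stood at -0.53 (SD 0.37), LPL, which frees fatty acids from lipoproteins, at 0.22 (SD 0.52), and the fatty acid carriers FABP3 and SLC27A1 at 0.61 (SD 0.58) and 0.73 (SD 0.78). Sterol synthesis (14 measured, median 0.25, 0 passed in limma, 6 at an unadjusted p under 0.05) had DHCR7 at 0.50 (SD 0.21) and SC5D at 0.33 (SD 0.084), while FDFT1, the squalene synthase, was opposite at -2.23, -1.26, -1.0 and -0.44 (mean -1.23, limma adjusted p = 0.112).

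**Figure D4:**
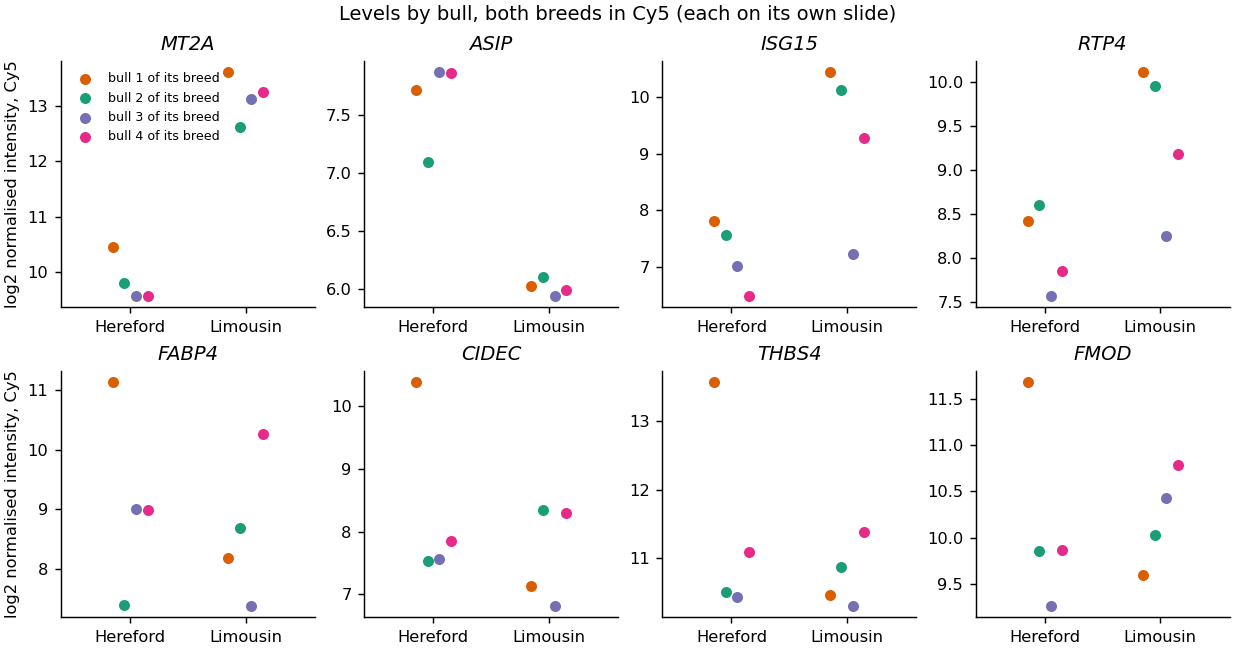
Log2 normalised intensity in Cy5 (y axis, which does not start at 0) by bull for 8 genes, Hereford bulls from the first slide and Limousin bulls from the second. MT2A and ASIP do not overlap between the breeds, Limousin bull 3 lies among the Hereford for ISG15 and RTP4, and Hereford bull 1 is the highest for FABP4, CIDEC, THBS4 and FMOD.

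Several connective tissue genes were high on array 1. Collagen and matrix genes (19 measured, median 0.10 log2, 0 passed in limma, 3 at an unadjusted p under 0.05) had medians of 0.54, -0.22, 0.054 and -0.016 on arrays 1 to 4. THBS4, a matrix protein of tendon and muscle, gave 3.03, -0.37, 0.23 and -0.11, and its Cy5 level was 13.57 in Hereford bull 1 and 10.44 to 11.09 in the other Hereford. FMOD, which binds collagen fibrils, gave 2.10, -0.11, -1.10 and -1.05. COL1A1 and COL1A2, the chains of type I collagen, were 1.24 and 1.51 on array 1 and between -0.60 and 0.083 on the others. For COL1A1 the Cy5 level was 14.05, 13.36, 13.36 and 13.97 log2 in Hereford bulls 1 to 4 and 12.32, 13.03, 13.50 and 13.58 in the Limousin bulls. Hereford bull 1 was thus level with bull 4, and Limousin bull 1 was the lowest of its breed. The summed level of 4 fibroblast markers was 24500 to 41750 intensity units in Hereford and 22720 to 42620 in Limousin in the same dye, so this sum overlapped, and its highest Hereford value was that of bull 4. THBS1 and POSTN, other matrix proteins, stood at 1.23 (SD 0.99) and 0.87 (SD 0.79).

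A few genes of the vessel wall stood higher in Hereford. ANGPT1, which passed, is the ligand of the receptor TEK on endothelium, and TEK stood at 0.26, 0.39, 0.99 and 1.20 (mean 0.71, limma adjusted p = 0.130). TEK was uneven (SD 0.45) and stood at 0.37 in the same dye (limma adjusted p = 0.222), where its levels overlapped between the breeds. RGS5, a marker of pericytes, gave 0.56, 0.84, 1.00 and 0.67 (mean 0.77, limma adjusted p = 0.054), and CNN1, a calponin of smooth muscle, 1.56, 1.25, 0.79 and 0.75 (mean 1.09, limma adjusted p = 0.062). Every array was above 0 for these 3 genes. The groups as a whole did not stand off: 9 endothelial genes had a median of -0.054 and 8 smooth muscle genes 0.068, with 0 passing in limma and 1 and 2 at an unadjusted p under 0.05. Of the endothelial genes, 6 had a mean below 0, among them ESAM (-0.44, SD 0.44), which stood at 0.21 in the same dye. ACTA2, MYH11 and TAGLN of smooth muscle stood at 0.19, -0.17 and 0.021.

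Proteolysis genes leaned lower in Hereford. Of 24 genes of proteolysis, 21 had a mean below 0, against 50.3% of named genes. PSMA5 fell and no other passed, and 6 were lower and 0 higher at an unadjusted p under 0.05, against 11.0% lower among named genes. The median was -0.25 log2. With median centring it was -0.00086, or -0.15 relative to all named genes. PSMD11, of the proteasome lid, gave -0.58, -0.51, -0.42 and -0.49 (SD 0.068, limma adjusted p = 0.062). Ribosomal protein genes (40 measured, 31 above 0, 0 passed in limma, 10 higher at an unadjusted p under 0.05, against 9.56% of named genes) had a median of 0.14. It was 0.047 with the processed signals of the scanner software and 0.61 with median centring, or 0.47 relative to all named genes. RPS24 was the highest of them at 0.64 (SD 0.30, limma adjusted p = 0.095).

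Growth control held INHA and IGFBP3 at its ends. IGFBP3, which binds insulin-like growth factors, gave -0.67, -0.86, -0.53 and -1.16 (mean -0.81, limma adjusted p = 0.063). MSTN, the muscle growth inhibitor myostatin, gave -0.59, -0.28, 0.45 and 0.37 (mean -0.013, limma adjusted p = 0.987). None of the 17 genes in that list passed in limma (3 at an unadjusted p under 0.05, median -0.0032). Insulin signalling (11 measured, 0 passed in limma, 5 at an unadjusted p under 0.05) had TBC1D1, which governs glucose carrier traffic, at -0.96 (SD 0.48, limma adjusted p = 0.093) and PIK3CA, a catalytic subunit of PI3 kinase, at 0.63 (SD 0.38).

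Nerve and blood lists were small. Of 7 nerve and Schwann cell genes, 0 passed in limma and 3 were higher at an unadjusted p under 0.05, among them CHRNA1, the acetylcholine receptor subunit of the muscle endplate (0.50, 0.79, 1.19 and 1.28, mean 0.94, limma adjusted p = 0.070), and PMP22 of myelin (0.79, SD 0.28). Lymphocyte genes (11 measured, median 0.11) and red blood cell genes (3 measured, median 0.12) had 0 members passing in limma and 0 at an unadjusted p under 0.05. GZMB, of cytotoxic cells, stood at 0.40 (SD 0.54), and CD27 at 0.11. AHSP of red cells stood at 0.12 (SD 0.22) and HBB, above background in 3 Hereford and 2 Limousin readings, at 0.090.

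**Figure D5:**
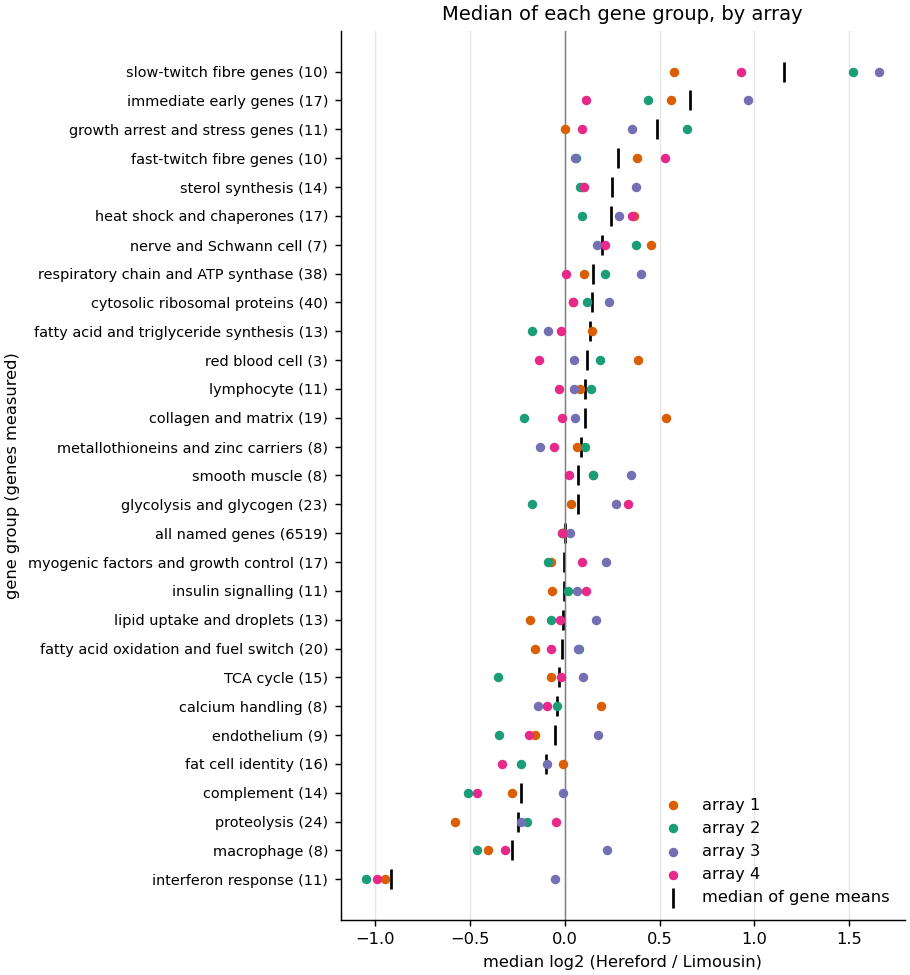
Median log2 ratio of Hereford over Limousin of each gene group on each array (coloured points), with the median of the gene means (black bar) and the number of genes measured in brackets. Slow-twitch fibre genes have the highest median of the gene means and interferon genes the lowest, with array 3 near 0 for the latter and array 1 high for collagen and matrix.

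The genes with the widest spread between arrays follow as a description, since a wide spread chose them. Besides FABP4, CIDEC, THBS4 and FMOD, the 10 genes with the widest spread over the arrays held MYBPH, a myosin-binding protein (2.36, -1.33, -0.45 and 0.18), SFRP5, a secreted Wnt inhibitor (2.49, 0.27, -1.04 and -0.44), GSTM3, a glutathione transferase (-0.23, -1.72, -2.26 and 1.21), PRND, CSRP3 and SEPHS2. Their mean ratios ran from -0.75 (GSTM3) to 0.69 (THBS4). MYBPH was highest in Hereford bull 1, at 9.40 log2 against 6.82 to 7.04 in the other Hereford. SFRP5 was not: its level in Limousin bull 1 was 11.09 log2 in Cy3 and 12.93 in Cy5.

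The contrast of Hereford with Holstein-Friesian, the other marbled breed, shows where the ratios of the breeds over Limousin differed. A gene that did not pass in it is not thereby shown to be shared. Both breeds were measured against the same 4 Limousin bulls, and their dyes were opposite, so a dye effect adds up in this contrast. In limma, 476 probes differed between the breeds' ratios (2.9% of probes), among them 213 named genes (3.27%). With the Limousin bull as a block 1719 probes passed. Of the 20 genes called in Hereford, 5 differed from Holstein-Friesian. The same Hereford ratios chose these 20 genes and enter the contrast, so this count cannot be set against the 3.27%. ASIP, kept by the filter through its Hereford readings alone, stood at 1.51 in Hereford and 0.13 in Holstein-Friesian (limma adjusted p = 0.012). It was well above background in 0 of 4 Holstein-Friesian and 0 of 4 Limousin readings on the second slide as well, so the measured difference of 1.38 is against levels not above background and gives no exact size. With the processed signals it was 3.91. LXN stood at 1.10 and -0.70 (difference 1.80, SE 0.13, limma adjusted p = 0.0023). The gap of 0.51 between Limousin Cy5 and Cy3 for LXN, across the slides, enters both ratios.

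MCTS1 stood at 0.79 in Hereford and -0.073 in Holstein-Friesian (difference 0.86, SE 0.12, limma adjusted p = 0.021) and PDE4B at 0.95 and -0.094 (difference 1.04, SE 0.18, limma adjusted p = 0.031). CPT1B stood at -0.81 and -0.10 (difference -0.71, SE 0.11, limma adjusted p = 0.023). INHA and C4A, not called against Limousin, differed as well. INHA stood at 1.90 and -0.042 (difference 1.94, SE 0.31, limma adjusted p = 0.027). C4A stood at -1.23 and 1.14 (difference -2.36, SE 0.35, limma adjusted p = 0.023), lower than Limousin on all 4 Hereford arrays and higher on all 4 Holstein-Friesian arrays. The difference from Holstein-Friesian did not pass for MT2A (-3.45 and -3.07), ATP2A2 (1.60 and 1.02) or PDK4 (2.71 and 3.05). In the fit over both breeds, their Holstein-Friesian ratios over Limousin had limma adjusted p-values of 0.0014, 0.024 and 0.010. The same Limousin bulls enter the ratios of both breeds. Without array pair 2 or 4 limma called 0 probes in this contrast (2280 and 2138 at an unadjusted p under 0.05), without pair 3 it called 26 and without pair 1 it called 428.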

How the data were processed

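Total RNA of semitendinosus muscle was hybridised to 2-colour Agilent bovine arrays, 4 with Hereford (Cy5) and Limousin (Cy3) and 4 with Limousin (Cy5) and Holstein-Friesian (Cy3). Per the file headers, the deposited scanner files hold intensity per spot with its local background, processed intensity (background-subtracted and dye-normalized), their log10 ratio, and 0 or 1 flags. The submitters' processing notes name Agilent Feature Extraction 10.7.3.1. The deposited value table equalled the scanner log10 ratio at 44407 of 44407 spots.

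Median intensities were corrected with normexp (offset 50) and normalised by loess (span 0.3, control spots at weight 0) in limma 3.58.1 under R 4.3.3; spots marked as outliers were left out and spots of a probe averaged. Probes well above background in at least 4 of 8 readings were kept. The mean of the 4 log2 ratios was tested against 0 (lmFit and eBayes, two-sided, Benjamini-Hochberg over 16405 probes, threshold 0.05). The steps were tested on simulated data. Reading in the same dye compared Hereford Cy5 with the same-numbered Limousin bull's Cy5 after Aquantile. The contrast with Holstein-Friesian was fitted over all 8 arrays.

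Symbols came from RefSeq accessions; a gene is its brightest kept probe. Of 338 genes with several kept probes, 109 had probes of opposite sign, 1 of them with both at an unadjusted p under 0.05. No coordinates are given. Members and the 28 gene lists were chosen with earlier results of these data known. Genes named by rule were those called, the 10 largest mean rises and falls (same sign on all arrays, unadjusted p under 0.01), the 2 smallest p of each list, a fixed set of fat, fibre and response genes, and the 10 widest SDs; the others named were chosen after their values were seen.

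Replicate numbers name the same Limousin bull on both slides, so they pair the arrays. The deviations of same-numbered arrays correlated at 0.416, 0.273, 0.502 and 0.0984. For arrays of unlike number the correlations ran from -0.345 to 0.146, and pair 4 lay within that range. Alternatives varied the background correction, normalisation, filter, variance model, arrays, block and dye.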

Additional observations from a re-analysis of the deposited data

Results flagged for a closer look

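In 4 of the 101 genes named by rule, 1 array stood far from the other 3. Chance gives such a gap in about 1 in 20 groups of independent, unselected values. These genes were chosen by their values on the same arrays, so the count cannot be set against that rate. RTP4 and PLAC8B, both below 0 on every array, were closest to 0 on array 3, at -0.83 and -0.70. SLC16A6 was highest on array 1, at 4.51, and SLC29A2 was closest to 0 there, at -0.91. The part of the array in these values was not tested.

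The ratio over Limousin differed between Hereford and Holstein-Friesian in 11 of the 101 genes named by rule (213 of all genes with a symbol) by the limma contrast, in which dye and breed cannot be told apart. Many of the 101 were named by Hereford ratios that also enter this contrast, so the 11 cannot be set against the 213. The measured difference was 1.38 log2 in ASIP, against Limousin and Holstein-Friesian levels not well above background, so it gives no exact size. Hereford was the higher by 1.80 log2 in LXN, 0.86 in MCTS1, 1.04 in PDE4B and 1.94 in INHA. It was also higher by 1.19 in CAMK2D (0.40 in Hereford, -0.78 in Holstein-Friesian, adjusted p = 0.038), by 1.23 in LDHA (0.56 and -0.66, adjusted p = 0.039) and by 0.82 in NDUFS4 (0.49 and -0.33, adjusted p = 0.018). The difference was -2.36 in C4A, -0.71 in CPT1B (adjusted p = 0.053 with the processed signals) and -1.18 in IGFBP3 (-0.81 and 0.38, adjusted p = 0.026).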

How the results depend on the processing

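In limma, the 33 probes called became 223 with the processed signals, 224 with the deposited ratios, 180 with median centring (median of all named genes 0.14), 67 with no filter on dim probes, 485 in the same dye, and 0 with a trend and robust prior (2741 unadjusted). Leaving out any 1 array gave 0 calls (2116 to 3529 unadjusted). The direction stayed the same in 33 of 33 probes, which follows from their choice by close agreement over the same arrays. Pooling both breeds gave 1240, and 1194 with the Limousin bull as a replicate block; CPT1B and MCTS1 lost their call with the processed or deposited values. The contrast with Holstein-Friesian went from 476 probes to 896, 895 and 5568 (84.6% higher against 58.6%) with processed, deposited and median-centred values, to 1719 with the replicate block, and to 0 to 428 without 1 array pair. Signs turned in named genes that had not passed. With median centring these included ACADVL (0.080), SLC25A20 (0.0011), MYH11 (0.035), CD27 (-0.0034), CSRP3 (0.19), FMOD (0.18), HBB (-0.0099), LEP (-0.13), MSTN (0.17), PLIN1 (0.0035) and PRND (0.12), and in the same dye PPARD (0.14), CKM (-0.18), MYH1 (-0.018), DES (-0.15), CSRP3 (0.019), ESAM (0.21), PRND (0.20) and THRSP (-0.090). With 1 array left out, computed for the 101 genes named by rule, signs turned where the log2 ratio ran from -0.33 to 0.95 in CIDEC, -0.91 to 0.18 in CSRP3, -0.34 to 1.10 in FABP4, -0.76 to 0.31 in FMOD, -0.33 to 0.69 in FOS, -0.011 to 0.051 in LEP, -0.17 to 0.18 in MSTN, -0.53 to 0.70 in MYBPH, -0.26 to 0.043 in PLIN1, -0.017 to 0.24 in PPARG, -0.67 to 0.42 in PRND, -0.10 to 0.97 in SEPHS2, -0.40 to 0.77 in SFRP5 and -0.085 to 1.05 in THBS4. Of 364 list medians recomputed, 29 moved by more than the spread between arrays. The causes were not tested.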
